A study of Mus musculus with 12 samples.

Results

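The genes described are 6 C-type lectin receptors of myeloid cells: Clec7a (Dectin-1), Clec4n (Dectin-2), Clec4d (MCL), Clec4e (Mincle), Clec5a (MDL-1) and Clec12a (MICL). They were chosen by symbol, as the rows of the deposited array table that are annotated to 1 of these symbols alone, and each had exactly 1 such row. They are 6 of 30142 genes named in the table, and all 6 lie on mouse chromosome 6. Their transcript clusters, the array's unit of summarised probes, are TC0600003236.mm.1 for Clec7a, TC0600001403.mm.1 for Clec4n and TC0600001404.mm.1 for Clec4d. The cluster of Clec4e is TC0600003084.mm.1, that of Clec5a is TC0600002142.mm.1 and that of Clec12a is TC0600001532.mm.1.

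The study profiled total RNA of mouse HoxB8-ER cells on 12 Affymetrix mouse transcriptome arrays, 2 for each of 6 groups, all from the C57BL/6 background. HoxB8-ER cells are bone marrow cells made to carry the transcription factor HOXB8 joined to the hormone-binding part of the estrogen receptor. While estradiol (0.5 µM) is present they keep dividing as promyelocyte-like progenitors, and on its removal they mature into neutrophils over 6 days. On 8 arrays the groups were wild-type progenitors, Ezh2-/- progenitors, wild-type neutrophils and neutrophils labelled Ezh2-null, the wild-type cells coming from littermates. Ezh2 encodes the methyltransferase of Polycomb repressive complex 2, which places the repressive mark H3K27me3. The other 4 arrays held wild-type HoxB8-ER neutrophils given the EZH2 inhibitor GSK343 or its vehicle. Exposure to GSK343 lasted 9 days at a dose that is 0.5 µM in the labels of the samples but 1 µM in the text of the series, and the dose was not settled here. All groups carry HOXB8-ER, and the number of independently transduced lines per genotype is not given in the labels, so genotype and cell line cannot be told apart. Nothing states that the replicates were separate cultures, so a p-value here reflects array-to-array spread alone, some or all of it possibly technical.

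C-type lectin receptors read sugars and lipids on fungi, mycobacteria and damaged cells. Dectin-1 binds beta-glucan and signals through its own tail, Dectin-2 and Mincle signal through the Fc receptor gamma chain (Fcer1g), MCL pairs with Mincle, and MDL-1 uses the adaptor DAP12 (Tyrobp). These routes meet at the kinase Syk and the adaptor Card9, whereas MICL carries an inhibitory tail that recruits phosphatases. Neutrophils use such receptors for phagocytosis, the oxidative burst and the release of granules.

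The upstream sequences of the members are shown because the 6 genes lie on a single chromosome and 4 or more of them moved the same way in each of 3 comparisons below. The 250 bases before the start of Clec7a, Clec4d, Clec4e, Clec5a and Clec12a were taken from a RefSeq promoter table (GRCm38.p6), that of Clec4n not being analysed here, and are written here 5′ to 3′ on the strand of the gene. Capitals mark GAGGAA or its reverse complement TTCCTC, a purine-rich core that PU.1 and other ETS factors are known to recognise, TATAAA or its reverse complement TTTATA, and TTGCGCAA, the palindrome recognised by C/EBP factors.
Clec7a (chr6:129472786-129473035, minus strand): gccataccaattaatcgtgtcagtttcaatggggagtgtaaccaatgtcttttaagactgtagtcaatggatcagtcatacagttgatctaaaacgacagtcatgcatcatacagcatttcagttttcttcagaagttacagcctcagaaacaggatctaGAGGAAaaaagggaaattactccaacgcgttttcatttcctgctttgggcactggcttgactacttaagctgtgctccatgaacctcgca
Clec4d (chr6:123261857-123262106, plus strand): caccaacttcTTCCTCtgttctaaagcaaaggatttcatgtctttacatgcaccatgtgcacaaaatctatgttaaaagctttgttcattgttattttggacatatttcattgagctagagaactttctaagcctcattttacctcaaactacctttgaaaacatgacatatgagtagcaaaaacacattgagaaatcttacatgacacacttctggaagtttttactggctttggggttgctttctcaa
Clec4e (chr6:123289872-123290121, minus strand): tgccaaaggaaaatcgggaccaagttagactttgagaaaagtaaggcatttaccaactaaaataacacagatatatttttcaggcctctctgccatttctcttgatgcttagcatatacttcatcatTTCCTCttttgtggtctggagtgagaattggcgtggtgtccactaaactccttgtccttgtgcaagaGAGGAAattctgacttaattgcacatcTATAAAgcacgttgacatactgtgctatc
Clec5a (chr6:40585806-40586055, minus strand): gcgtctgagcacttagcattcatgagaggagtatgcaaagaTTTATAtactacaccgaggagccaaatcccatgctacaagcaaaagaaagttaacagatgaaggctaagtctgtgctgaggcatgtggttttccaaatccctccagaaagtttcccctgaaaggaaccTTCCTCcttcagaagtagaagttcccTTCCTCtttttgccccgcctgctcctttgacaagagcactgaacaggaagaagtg
Clec12a (chr6:129349994-129350243, plus strand): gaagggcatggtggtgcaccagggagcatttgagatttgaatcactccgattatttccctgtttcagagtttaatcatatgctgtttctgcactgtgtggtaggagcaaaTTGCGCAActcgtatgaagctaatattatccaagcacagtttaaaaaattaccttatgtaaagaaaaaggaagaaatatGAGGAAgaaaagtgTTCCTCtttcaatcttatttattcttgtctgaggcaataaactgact
GAGGAA on either strand occurred in all 5 windows, against 7639 of 32851 RefSeq windows of the same length (23.3%). The matches lay at bases -90 to -85 from the start in Clec7a, -240 to -235 in Clec4d, and at 2 places each in Clec4e, Clec5a and Clec12a. TTGCGCAA occurred in Clec12a, at bases -140 to -133, and in 54 of all windows (0.164%). TATAAA occurred in Clec4e at bases -29 to -24 and, on the opposite strand, in Clec5a, against 12.4% of all windows. The windows held 0 to 5 CG dinucleotides, against a median of 6 over all windows, and 49.6% of all windows held 5 or fewer. Their GC content was 35.2% to 46.0%, below the median of 52.4%. The motifs were picked after the sequences had been seen, and a match describes letters in this window, not binding.

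The deposited values are log2 signals, used here as given. On each array the background limit was the signal below which 95% of the 23 antigenomic control probe sets fell, and it lay between 4.83 and 5.79. The median over all clusters was 4.54 to 4.65 on the 8 genotype arrays and 3.88 to 3.96 on the 4 drug arrays, so levels were compared only within each set. Ezh2 signal fell by 2.34 on the log2 scale in Ezh2-/- progenitors (limma adjusted p = 5.5e-05). In neutrophils labelled Ezh2-null it was 8.74 and 9.02 against 8.31 and 8.34 in wild-type neutrophils, so there the transcript was not lower and the signal cannot bear out the label. The wild-type mean was itself lower in neutrophils (8.33) than in progenitors (11.61). In the cells labelled Ezh2-null the means were 8.88 in neutrophils and 9.27 in progenitors. The cluster summarises the gene as a whole, and the deleted exons are not stated. All 13 neutrophil markers rose on differentiation in both genotypes, and all 6 T and NK cell markers were at background in every group. Of 12 monocyte and macrophage markers, 8 rose on differentiation in each genotype, while C1qa and Timd4 stayed at background on both arrays of every group. In neutrophils labelled Ezh2-null, 11 of 11 mast cell and basophil markers and 8 of 8 erythroid markers were higher than in wild-type neutrophils, against 6.75% of all clusters. Tpsab1, among the mast cell markers, was at background on both arrays of both groups. The mean log2 level of the mast cell list was 11.25 to 11.98 there against 5.78 to 5.94, and that of the erythroid list was 11.21 to 11.49 against 4.88.

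In wild-type progenitors Clec4d, Clec4e, Clec5a and Clec12a were well above background, Clec7a lay just above it and Clec4n was below it. Clec4e, the receptor for mycobacterial cord factor, had log2 signals of 12.61 and 13.34 in wild-type progenitors and 11.97 and 11.52 in wild-type neutrophils. In Ezh2-/- progenitors it had 12.39 and 11.98, and in neutrophils labelled Ezh2-null 10.73 and 8.69. Clec4e was thus the member whose highest array was a progenitor array, and its 2 arrays of neutrophils labelled Ezh2-null differed by more than those of any other member in any group. Clec4d, its partner, had 11.40 and 12.54 in wild-type progenitors, 9.17 and 8.52 in Ezh2-/- progenitors, 14.44 and 14.42 in wild-type neutrophils and 15.57 and 14.55 in neutrophils labelled Ezh2-null. The 4 groups of Clec4d did not overlap, and its lowest group was the Ezh2-/- progenitors. Clec4n, which recognises fungal mannans, had 5.05 and 5.31 in wild-type progenitors and 5.2 and 4.92 in Ezh2-/- progenitors, all below the background limit of their arrays. In neutrophils it had 11.26 and 12.80 for the wild type and 11.90 and 12.47 for those labelled Ezh2-null, which overlap.

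Clec7a had 5.73 and 5.98 in wild-type progenitors, 3.80 and 3.92 in Ezh2-/- progenitors, 12 and 11.97 in wild-type neutrophils and 13.30 and 14.12 in neutrophils labelled Ezh2-null. It was below background in Ezh2-/- progenitors and highest in the neutrophils labelled Ezh2-null. Clec5a had 12.09 and 13.60 in wild-type progenitors, 6.89 and 6.98 in Ezh2-/- progenitors, 14.76 and 13.61 in wild-type neutrophils and 13.22 and 12.14 in neutrophils labelled Ezh2-null. Its Ezh2-/- progenitor arrays stood far below all others, and the arrays of wild-type progenitors and of neutrophils labelled Ezh2-null overlapped. Clec12a had 11.61 and 12.09 in wild-type progenitors, 8.99 and 7.49 in Ezh2-/- progenitors, 14.56 and 13.85 in wild-type neutrophils and 12.66 and 11.85 in neutrophils labelled Ezh2-null. The order of its groups was the same as for Clec5a except that wild-type progenitors (mean 11.85) lay below the neutrophils labelled Ezh2-null (mean 12.26), again with overlapping arrays.

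**Figure D1:**
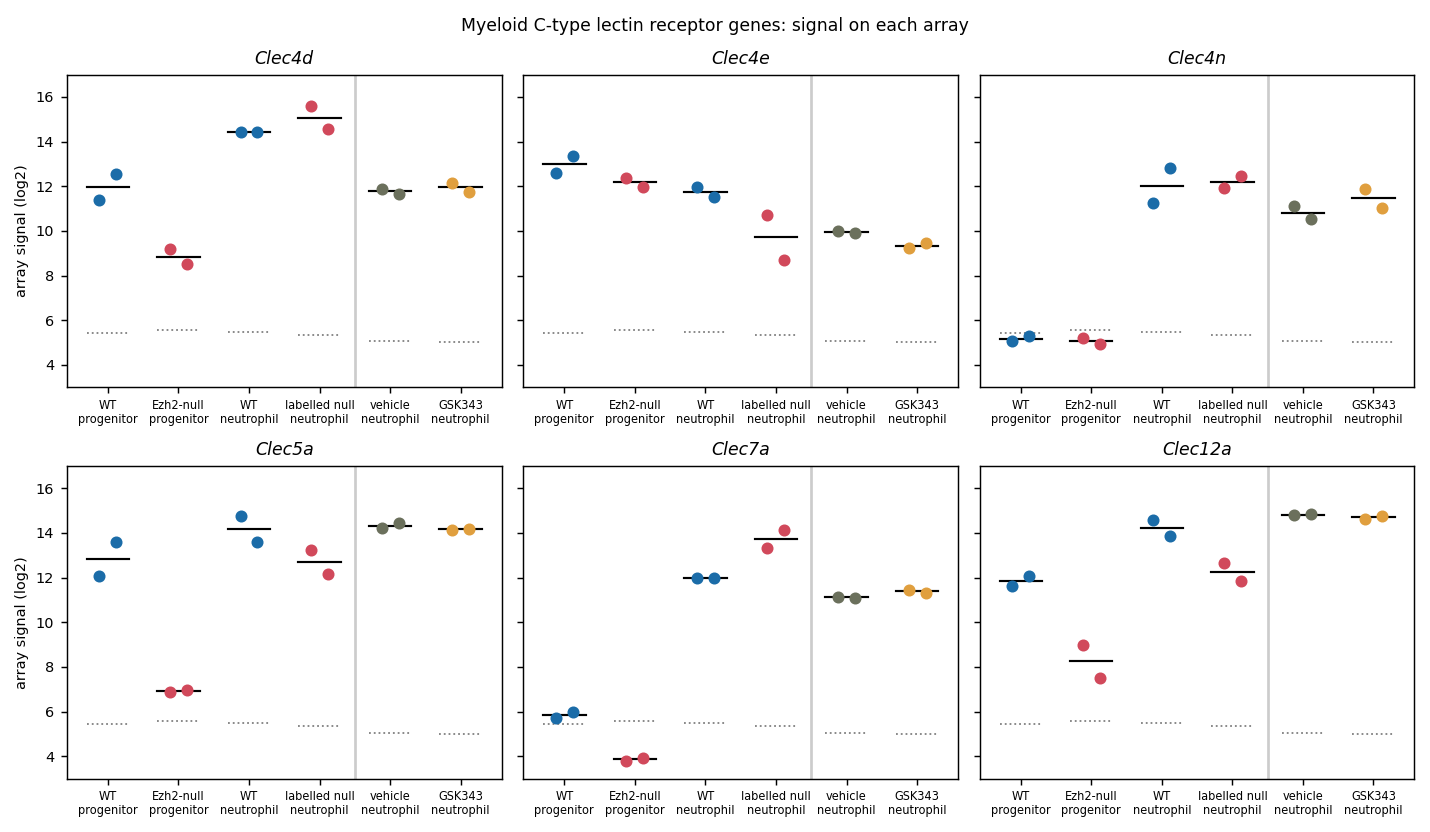
Log2 signal (vertical axis) of each of the 6 receptor genes on every array, by group, with a point for each array, a bar at the group mean, a dotted line at the mean background limit of the group's arrays and a grey line between the genotype and drug sets. Clec5a sits at 6.89 and 6.98 in Ezh2-/- progenitors against 12.09 or more in the other 3 genotype groups, and Clec4n is at background in both progenitor groups.

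Differentiation of wild-type cells asks which receptors differ between the progenitor and the neutrophil cultures. Clec4n, Clec7a, Clec4d and Clec12a rose, which is 4 of 6 members against 13% of all clusters that rose at an adjusted p under 0.05 (limma with Benjamini-Hochberg adjustment over 65956 clusters, the threshold used throughout) and 28.9% of those above background in a compared group. Clec4n rose by at least 96.5-fold, its progenitor level being only a bound (log2 change 6.85, SE 0.473, adjusted p = 9.38e-06), or at least 63.8-fold with the median of the negative controls as the limit. Clec7a rose by 6.14 on the log2 scale (SE 0.228, 70.4-fold, adjusted p = 4.01e-07), and by at least 61.9-fold with that second limit. Both receptors thus went from signals at or near background to signals far above it. Clec4d rose by 2.46 (SE 0.415, adjusted p = 0.00179) and Clec12a by 2.35 (SE 0.458, adjusted p = 0.00407), each from an already measurable progenitor level. Clec5a differed by 1.34 (95% interval 0.15 to 2.53, adjusted p = 0.103) and Clec4e by -1.23 (95% interval -2.46 to -0.01, adjusted p = 0.147), and neither passed. Clec5a passed without the second wild-type progenitor array (2.10) and when only clusters above background were tested (1.34, limma adjusted p = 0.0463). Clec4e passed without either array of neutrophils labelled Ezh2-null and when the wild-type arrays of this comparison alone were fitted (-1.23, limma adjusted p = 0.0389). The median change over the 6 members was 2.41, against 0.03 over all clusters. In bulk RNA, fewer cells of a type and less RNA per cell cannot be told apart. Beside the receptor rises, all 13 neutrophil markers rose, and so did 8 of 12 monocyte and macrophage markers. The mean log2 level of the monocyte and macrophage list was 9.08 to 10.08 in wild-type neutrophils against 6.16 in wild-type progenitors. The part of these lists in the receptor rises was not tested.

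In the cells labelled Ezh2-null, 5 members rose on differentiation against 11.7% of all clusters, and Clec4e fell against 10.7% of all clusters. The shares among clusters above background were not computed here. Clec7a rose by at least 284-fold (log2 change 9.85, SE 0.228, adjusted p = 3.33e-08) and Clec4n by at least 98.8-fold (7.12, SE 0.473, adjusted p = 1.3e-05). Clec4d rose by 6.22 (74.4-fold, adjusted p = 1.34e-05), Clec5a by 5.74 (53.6-fold, adjusted p = 7.06e-05) and Clec12a by 4.02 (16.2-fold, adjusted p = 0.000255). Clec4e fell by 2.48 on the log2 scale (SE 0.542, limma adjusted p = 0.00959). That call was lost when only the arrays of the comparison were fitted (SE 0.709, limma adjusted p = 0.111). It was also lost without the first Ezh2-/- progenitor array (-2.28). The median change over the members was 5.98, against 0.01 over all clusters. All 13 neutrophil markers and 8 of 12 monocyte and macrophage markers rose here too. The mean log2 level of the monocyte and macrophage list was 8.11 to 8.12 in neutrophils labelled Ezh2-null against 5.11 to 5.31 in Ezh2-/- progenitors. Their part in the receptor rises was not tested.

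The genotype comparison in progenitors asks what loss of Ezh2 does before differentiation. Clec5a, Clec12a, Clec4d and Clec7a were lower in Ezh2-/- progenitors, which is 4 of 6 members against 1.34% of all clusters and 3.53% of those above background in a compared group. Clec5a fell by 5.91 on the log2 scale (SE 0.525, 60.3-fold, adjusted p = 0.000317). Clec12a fell by 3.61 (SE 0.458, 12.2-fold, adjusted p = 0.00263) and Clec4d fell by 3.13 (SE 0.415, 8.75-fold, adjusted p = 0.00349). Clec7a fell by 1.99 (SE 0.228, adjusted p = 0.00146), a change of at least 1.22-fold, because its null arrays lay below background. With the median of the negative controls as the limit no fold can be given for it, since its wild-type arrays then lay below the limit too. The activating receptors Clec5a and Clec4d and the inhibitory receptor Clec12a thus fell together. Clec4e differed by -0.79 (95% interval -2.01 to 0.44, adjusted p = 0.68), and Clec4n was below background in both groups. Clec4d and Clec12a missed the threshold when the 4 progenitor arrays alone were fitted (adjusted p = 0.118 and 0.123). Of 8 promyelocyte and progenitor markers, 3 were lower in Ezh2-/- progenitors, with a mean log2 level of 12.24 to 13.13 against 14.54 to 14.77, and 2 of 13 neutrophil markers were higher and 1 lower. Of 12 monocyte and macrophage markers 2 were lower and none higher. They were Ccr2 (-6.71, adjusted p = 0.00364) and Adgre1 (-2.30, adjusted p = 0.0421), and the mean log2 level of the list was 5.11 to 5.31 against 6.16. Of 11 mast cell and basophil markers 1 was higher and 1 lower, and 1 of 8 erythroid and 1 of 4 B cell markers were higher. Over all clusters 1087 of 65956 were higher and 1.34% lower. The erythroid marker called higher, Gata1, was below background on both arrays of both groups. The part of these lists in the receptor differences was not tested.

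In neutrophils the genotype label went with a different set of differences. Clec7a was higher in the neutrophils labelled Ezh2-null, 1 of 6 members against 6.75% of clusters that rose, while Clec12a and Clec4e were lower, 2 of 6 against 5.06% of clusters that fell. Among clusters above background in a compared group, 28.3% changed in either direction, and 3 of 6 members did. Clec7a rose by 1.72 (SE 0.228, 3.30-fold, adjusted p = 0.00131) and held under all 19 alternative settings. Clec12a fell by 1.95 (SE 0.458, adjusted p = 0.0234), and this was not called without the first wild-type neutrophil array (-1.59, adjusted p = 0.153) or without the second array labelled Ezh2-null (-1.55, adjusted p = 0.17). Clec4e fell by 2.04 (SE 0.542, adjusted p = 0.0408), but its call was lost in 10 of 19 settings, among them the fit without the second array labelled Ezh2-null (-1.02, adjusted p = 0.135) and that without the first wild-type neutrophil array (-1.81, adjusted p = 0.196). The Clec4e call was also lost without the second wild-type neutrophil array, without either wild-type progenitor array and with any 1 drug-set array left out (adjusted p = 0.0533 to 0.0892). Clec5a differed by -1.51 (95% interval -2.70 to -0.32, adjusted p = 0.112), Clec4d by 0.63 (95% interval -0.31 to 1.57) and Clec4n by 0.15 (95% interval -0.92 to 1.22). Beside these values, the mast cell and erythroid lists stood far higher in the neutrophils labelled Ezh2-null, 5 of 13 neutrophil markers and 4 of 12 monocyte markers were lower there, and the part of these shifts in the receptor values was not tested.

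The difference between the genotype effects at the 2 stages was tested directly, as the effect in neutrophils minus that in progenitors. It was positive for Clec5a (4.41, SE 0.743, adjusted p = 0.0114), Clec4d (3.76, SE 0.587, adjusted p = 0.00789) and Clec7a (3.71, SE 0.323, adjusted p = 0.000367), 3 of 6 members against 2.77% of clusters. Clec5a and Clec4d thus had large deficits in Ezh2-/- progenitors that were not called in the neutrophils, and the effect on Clec7a changed sign. The 2.77% is of all clusters, and the share among those above background was not computed. The size for Clec7a rests on Ezh2-/- progenitor arrays below background, where its deficit is bounded at 1.22-fold or, by the negative controls, has no bound. The Clec5a difference missed the threshold when only the 8 genotype arrays were fitted (adjusted p = 0.0597). Clec12a gave 1.66 (95% interval 0.20 to 3.13, adjusted p = 0.244), Clec4e -1.25 (adjusted p = 0.538) and Clec4n 0.27 (adjusted p = 0.934). Clec12a passed without the first Ezh2-/- progenitor array (2.41, adjusted p = 0.025), and Clec4e without the first array labelled Ezh2-null of the neutrophils (-2.27, adjusted p = 0.0272).

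The inhibitor arrays ask whether blocking the enzyme in wild-type cells moves the same receptors. None of the 6 members was called between GSK343 and vehicle with limma, where 1 of 65956 clusters was called (0.00152%), and none of the members reached an unadjusted p under 0.05, against 3963 clusters (6.01%) that did. The called cluster, Cpa3, a mast cell protease gene named here for being the sole call, rose by 2.99 (SE 0.224, limma adjusted p = 0.0187). Clec4n had 11.89 and 11.03 with GSK343 and 11.10 and 10.54 with vehicle, Clec4e had 9.22 and 9.46 against 10.01 and 9.91, and Clec7a had 11.44 and 11.32 against 11.15 and 11.09. The arrays of Clec4n overlapped, while those of Clec4e and Clec7a did not. Clec12a had 14.64 and 14.74 against 14.78 and 14.84, Clec5a had 14.13 and 14.18 against 14.22 and 14.42, and Clec4d had 12.15 and 11.75 against 11.88 and 11.67. The GSK343 arrays of Clec12a and Clec5a lay below both vehicle arrays, and those of Clec4d overlapped them. The share of all clusters whose drug-set arrays separate in this way was not computed. With 2 arrays against 2, an exact permutation test of a single value cannot go below p = 0.333, so these separations are descriptions. The 95% interval of the change was -0.43 to 1.71 for Clec4n, -1.84 to 0.61 for Clec4e, -0.26 to 0.77 for Clec7a, -1.15 to 0.92 for Clec12a, -1.35 to 1.02 for Clec5a and -0.77 to 1.11 for Clec4d. These intervals and calls use a spread estimated for each cluster over all 12 arrays, so the genotype arrays weigh in them. For Clec4e the SE was 0.542, beside SDs of 0.17 with GSK343, 0.07 with vehicle and 1.44 in neutrophils labelled Ezh2-null. Missing the threshold does not show that the drug left the receptors as they were.

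The neutrophil genotype effect minus the drug effect was positive for Clec7a (1.47, SE 0.323, adjusted p = 0.0445), 1 of 6 members against 1.97% of clusters. That call was lost in 10 of 19 settings (adjusted p = 0.0701 to 0.149), which include leaving out any single drug-set array, either wild-type neutrophil array or either wild-type progenitor array. For the other 5 members the difference did not pass, with Clec12a at -1.84 (adjusted p = 0.222) and Clec4e at -1.42 (adjusted p = 0.491). The 1.97% is of all clusters, and the share among those above background was not computed. Clec4e passed without the first neutrophil array labelled Ezh2-null (-2.44, adjusted p = 0.024).

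**Figure D2:**
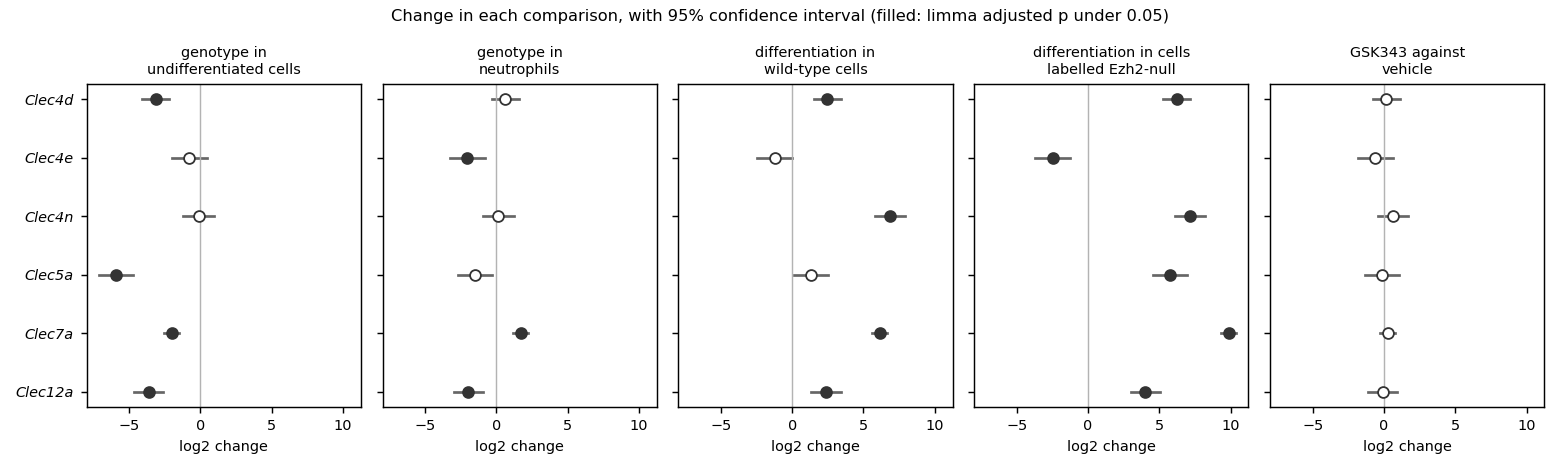
Log2 change with its 95% interval (horizontal axis) for the 6 receptors in the 5 comparisons between groups, with filled points for called changes and open points for the rest. The genotype effect of Clec5a runs from -5.91 in progenitors to -1.51 in neutrophils, that of Clec7a from -1.99 to 1.72, and every GSK343 interval includes 0.

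The partners through which these receptors signal were taken as a list of 24 genes, of which 20 had a row of their own. In Ezh2-/- progenitors 3 of the 20 were lower, against 1.34% of all clusters. There 1 was higher, against 1087 of 65956 clusters. The list median was -0.07 against -0.01 over all clusters. Tyrobp, the adaptor of Clec5a, had 12.74 and 12.52 in wild-type progenitors and 9.69 and 9.16 in Ezh2-/- progenitors, and fell by 3.21 on the log2 scale (SE 0.196, adjusted p = 3.39e-05). The groups of Tyrobp stood well apart, and the call held in all 19 settings. Rel, an NF-kappaB subunit, fell by 1.52 (adjusted p = 0.00172), a call lost when the 4 progenitor arrays alone were fitted. Fcer1g, the adaptor of Dectin-2 and Mincle, was lower by a margin at the threshold (-1.04, SE 0.229, adjusted p = 0.0477), and that call was lost in 14 of 19 settings. Nfatc2 was the gene called higher, but all 4 progenitor arrays of it were below the background limit, so no size is given, and the call was lost without either wild-type progenitor array. Syk, on which both adaptors converge, had a change of 0.00 (SE 0.317), and Card9 one of -0.06 (SE 0.385).

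In neutrophils 9 of the 20 partners were lower (5.06% of all clusters) and 1 was higher (6.75%) in those labelled Ezh2-null, where 28.3% of clusters above background changed in either direction, with a list median of -0.89 against -0.03. Fgr, a Src-family kinase, fell by 1.88 (adjusted p = 0.0216) and Card9 fell by 1.73 (adjusted p = 0.0184), and both calls were lost without the first wild-type neutrophil array or the second array labelled Ezh2-null. Nfatc2 was higher by at least 1.09-fold (adjusted p = 0.0019), its wild-type arrays being below background and 1 of its arrays labelled Ezh2-null as well. Tyrobp had 16.05 and 15.64 against 15.99 and 15.93 (change 0.12, adjusted p = 0.825). The difference of its genotype effect between stages was 3.33 (SE 0.277, adjusted p = 0.000288), beside the 4.41 of Clec5a. On differentiation 15 partners rose and 1 fell in wild-type cells (list median 1.27), where 13% of all clusters and 28.9% of those above background rose. In cells labelled Ezh2-null 11 rose and 2 fell (list median 0.79), against 11.7% and 10.7% of clusters. Syk rose by 3.15 (adjusted p = 7.58e-05) and by 2.18 (adjusted p = 0.00107), Tyrobp by 3.21 and by 6.54, and Fcer1g by 1.54 and by 1.77. None of the 20 was called with GSK343, Tyrobp giving 0.12 (95% interval -0.32 to 0.56).

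**Figure D3:**
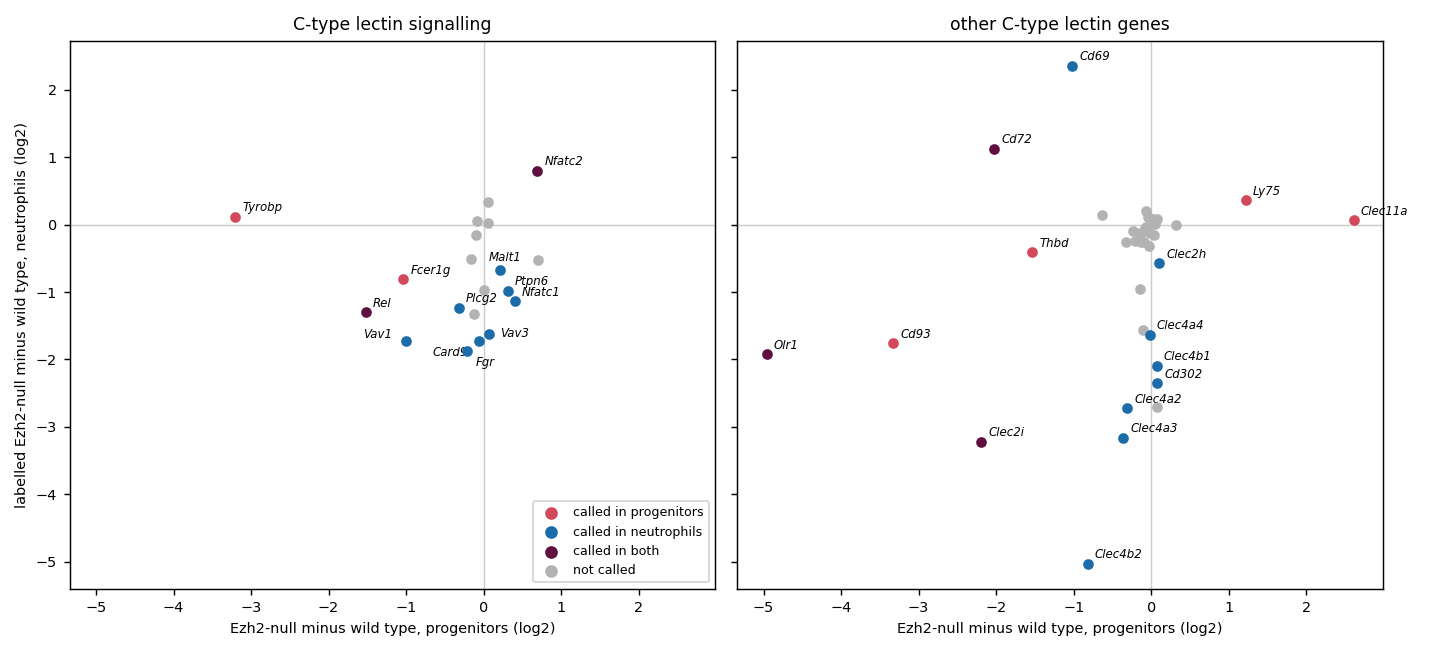
Log2 genotype change in neutrophils (vertical axis) against that in progenitors (horizontal axis) for the signalling partners on the left and the other C-type lectin genes on the right, a point for each gene, coloured by where it was called, with genes below background drawn at their fitted change. Tyrobp lies at -3.21 in progenitors and 0.12 in neutrophils, and Clec4b2 at -0.82 and -5.03.

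Other C-type lectin genes were measured for 38 of 39 listed. In Ezh2-/- progenitors 5 were lower and 2 higher, where 1.34% of all clusters and 3.53% of those above background fell. Over all clusters 1087 of 65956 rose there. Olr1, the oxidised-LDL receptor, fell by 4.96 (adjusted p = 0.000356). Its values were 10.47 and 10.66 in the wild type and 5.85 and 5.36 in the null, which do not overlap. Cd93 fell by 3.33 (adjusted p = 0.0134), a call lost without either wild-type progenitor array, and Clec11a, a secreted lectin, rose by at least 3.73-fold (adjusted p = 6.71e-05). In neutrophils labelled Ezh2-null 9 were lower and 2 higher, where 5.06% of all clusters fell and 6.75% rose. Among clusters above background in a compared group 28.3% changed in either direction. The 38 genes include genes at background, so that second share is not a like one. Clec4b2 had 12.74 and 12.09 in wild-type neutrophils and 7.27 and 7.50 in those labelled Ezh2-null, and fell by 5.03 (SE 0.201, adjusted p = 1.44e-06). Clec2i fell by 3.22 (adjusted p = 4.42e-05), and the higher genes were Cd69 (2.36, adjusted p = 0.00375) and Cd72 (1.13, adjusted p = 0.00866). The Cd72 call was lost without the first wild-type neutrophil array or the second array labelled Ezh2-null. On differentiation 13 rose and 2 fell in wild-type cells, led by Clec4a1 (at least 302-fold) and Clec4a3 (at least 211-fold), and 11 rose and 4 fell in cells labelled Ezh2-null. The shares of all clusters that rose were 13% and 11.7%. GSK343 gave no call among the 38.

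Order along chromosome 6, taken from the RefSeq gene table, placed the members in 3 blocks with 34 measured neighbours that are not members. Clec4n, Clec4d and Clec4e are adjacent and have Clec4a3, Clec4a4, Clec4b1, Clec4a2 and Clec4b2 on one side and vomeronasal receptor genes (Vmn2r19 to Vmn2r23), all at background, on the other. Those 5 lectin neighbours, of which Clec4a2 and Clec4a4 encode receptors with inhibitory tails, rose on differentiation in both genotypes, as Clec4n and Clec4d did. Of the 34 neighbours 7 rose in wild-type cells and 9 in those labelled Ezh2-null, against 13% and 11.7% of all clusters. In neutrophils labelled Ezh2-null those 5 lectin neighbours were all lower, with Clec4b2 at -5.03, Clec4a3 at -3.16 (adjusted p = 0.000523), Clec4a2 at -2.72 (adjusted p = 0.000623), Clec4b1 at -2.09 (adjusted p = 0.00144) and Clec4a4 at -1.63 (adjusted p = 0.00186). Of the 34 neighbours 8 were lower there and 1 higher, where 5.06% of all clusters fell and 6.75% rose. Among clusters above background in a compared group 28.3% changed in either direction. The adjacent Clec4e was called lower there too (-2.04, adjusted p = 0.0408, with the lost calls given above), whereas Clec4n (0.15) and Clec4d (0.63) were not called, and the difference between neighbouring genes was not tested. In progenitors none of the 5 was called. There 4 of them were below background in both genotypes and Clec4b2 was so in Ezh2-/- cells and just above it in the wild type, so a fall could hardly have been measured. Their genotype effect minus the drug effect was also negative for all 5, reaching -5.0 for Clec4b2 (adjusted p = 3.2e-05), while GSK343 itself changed Clec4b2 by -0.03 (95% interval -0.49 to 0.42). Over all clusters 875 of 65956 were called negative for that difference. The calls of that difference for Clec4a2, Clec4a4 and Clec4b1 were lost when any 1 drug-set array was left out, and those of the difference between stages for 4 of the 5 were lost without the first wild-type progenitor array.

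Clec12a and Clec7a share a block with 14 other measured neighbours, among them Olr1, Clec2d, Cd69 and natural killer receptor genes. In Ezh2-/- progenitors Olr1 and Klrb1f (-4.41, adjusted p = 0.00151) were lower, as Clec12a and Clec7a were, and the other 12 were not called. There 1.34% of all clusters and 3.53% of those above background in a compared group fell. Klrb1f had 10.39 and 11.97 in wild-type progenitors and 7.07 and 6.46 in Ezh2-/- progenitors, and its call was lost when the 4 progenitor arrays alone were fitted. In neutrophils labelled Ezh2-null 2 of the 14 were called lower and 1 higher, where 5.06% of all clusters fell and 6.75% rose. Klrb1f had means of 5.74 there and 9.19 in wild-type neutrophils, and Cd69 had 8.82 and 6.46. Olr1, next to Clec7a, was lower in neutrophils labelled Ezh2-null too (-1.92, limma adjusted p = 0.0231), where Clec7a was higher. That Olr1 call was lost without the first wild-type neutrophil array or the second array labelled Ezh2-null. Clec9a, Clec1a, Clec1b and Clec12b, which lie in the same block, were at background in all groups of the genotype set. Clec5a lies apart, among taste receptor, olfactory receptor and protease genes at background. Of its 10 neighbours only Mgam, a maltase-glucoamylase gene, was called. Mgam fell by at least 4.66-fold in progenitors (adjusted p = 0.0203), where its Ezh2-/- arrays were below background, and also fell in neutrophils (log2 change -3.5, adjusted p = 0.00316). The progenitor call of Mgam was lost without any 1 of the 4 progenitor arrays.

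**Figure D4:**
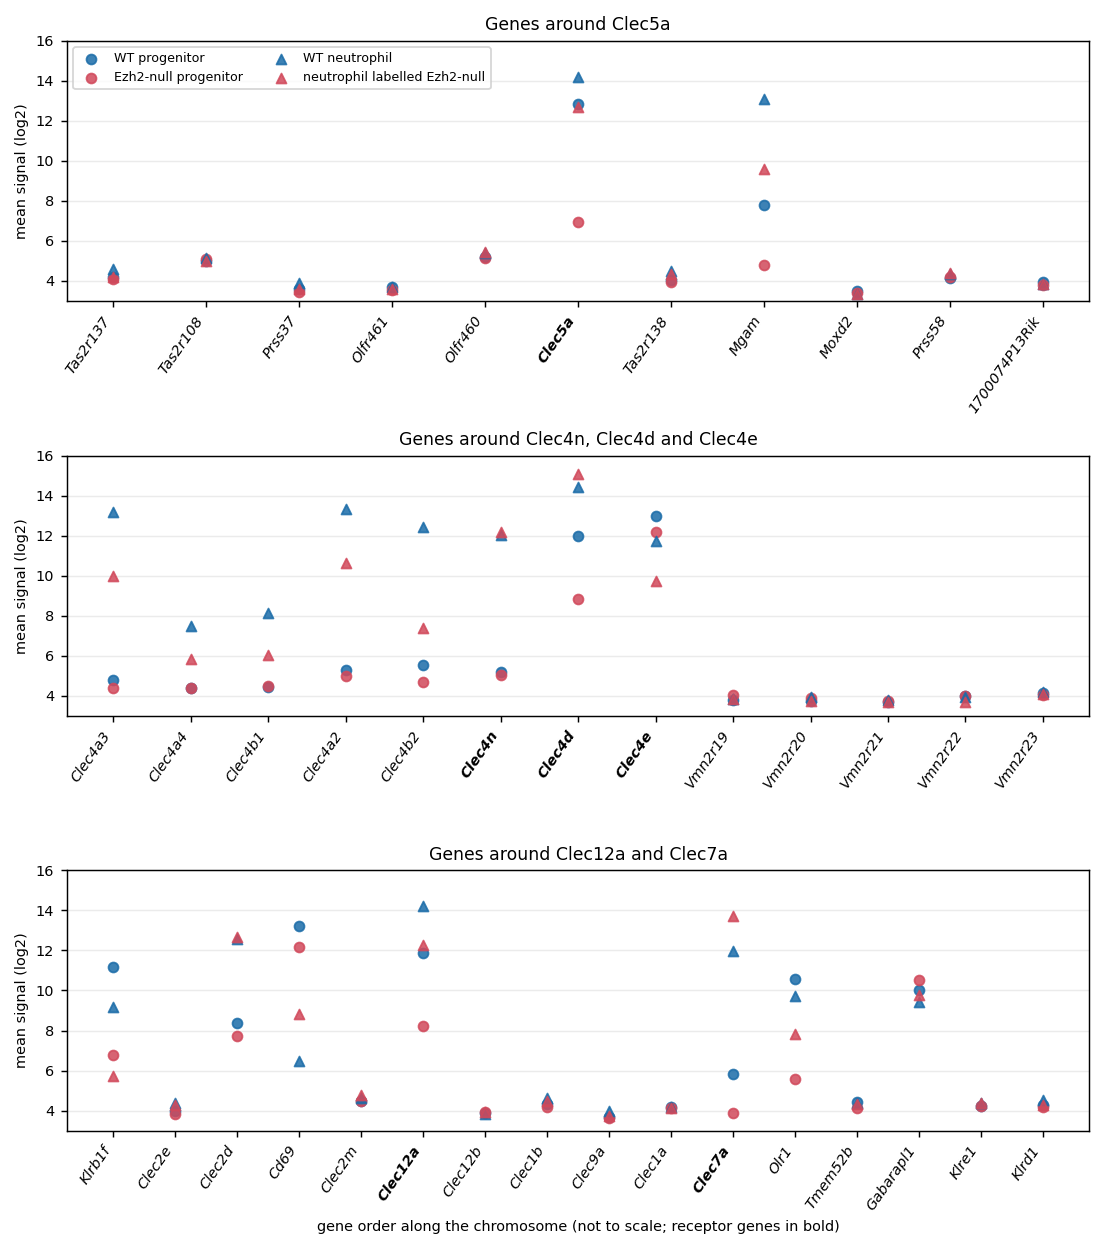
Log2 group means (vertical axis) of the 6 members and their 34 measured neighbours in chromosome order (horizontal axis, by rank and not to distance), in 3 blocks, for the 4 genotype groups. In the block of Clec4n, Clec4d and Clec4e the 5 lectin neighbours lie lower in neutrophils labelled Ezh2-null than in wild-type neutrophils, as Clec4e does, whereas Clec4n and Clec4d do not.

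Members differed in the company they kept over the 8 genotype arrays. These Pearson correlations are descriptions, since the arrays fall into 4 groups and share their group differences. Clec5a and Clec12a had r = 0.96, Clec4n and Clec7a r = 0.97 and Clec4d and Clec7a r = 0.94, while Clec4e had r between -0.74 and -0.12 with every other member. Among 4201 genes whose group means spanned at least 2 log2 units, the closest to Clec4d were Gm8995 (r = 0.987), the collagenase gene Mmp13 (0.986) and Tyrobp (0.982). Closest to Clec5a were St8sia4 (0.986), Sgms2 (0.972), a sphingomyelin synthase gene, and H2-D1 (0.959). Sgms2 was also the closest to Clec12a (0.993), followed by Pygl and Pqlc3 (0.985 each). Clec4n was closest to Ifi207 (0.999), to Hmox1 (0.998), which encodes heme oxygenase, and to the protease gene Lgmn (0.997). Clec7a was closest to Gm20559 (0.996), H2-T24 (0.994) and Tnfrsf14 (0.993), and Clec4e to Vamp7 (0.963), Tmem184c (0.962) and Lclat1 (0.949).

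Genes that C-type lectin signalling is known to induce were measured for all 20 listed. In Ezh2-/- progenitors 1 was higher, Egr1 (1.25, limma adjusted p = 0.0406), a call lost in 13 of 19 settings. Over all clusters 1087 of 65956 rose there. In neutrophils labelled Ezh2-null 2 of the 20 were higher and 1 was lower, near the 6.75% and 5.06% of all clusters that rose and fell there. Il6 rose by at least 5.75-fold (adjusted p = 0.00916) and Cxcl2, a neutrophil-attracting chemokine, by 2.20 (adjusted p = 0.012), while the inflammasome gene Nlrp3 fell by 1.36 (adjusted p = 0.027). All 3 calls were lost without the first wild-type neutrophil array. The Cxcl2 call was also lost without the first array labelled Ezh2-null, and the Nlrp3 call without the second of either group. On differentiation 6 rose and 1 fell in wild-type cells and 8 rose and 1 fell in cells labelled Ezh2-null, with Nlrp3 rising by 6.5 and 6.24, and 13% and 11.7% of all clusters rose. Among 16 other phagocytic receptors, 14 rose on differentiation in each genotype (13% and 11.7% of all clusters) and 8 were lower in neutrophils labelled Ezh2-null (5.06%), led by Trem3 (-3.67, adjusted p = 0.00085) and Pilra (-2.99, adjusted p = 0.0192). Among clusters above background in a compared group, 28.9% rose in wild-type differentiation. By genotype label in neutrophils, 28.3% of such clusters changed in either direction. The Pilra call was lost without the first wild-type neutrophil array. In Ezh2-/- progenitors 4 of the 16 were lower (1.34% of all clusters, 3.53% of those above background), led by Trem3 (-3.81, adjusted p = 0.00175) and Trem1 (-3.07, adjusted p = 0.0187). The integrin gene Itgb2 was higher (log2 change 1.34, adjusted p = 0.0037). The Trem1 call was lost without either wild-type progenitor array or the second Ezh2-/- progenitor array, and Trem3 and Itgb2 missed the threshold when the 4 progenitor arrays alone were fitted. GSK343 gave no call in either list.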

How the data were processed

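Total RNA (250 ng) was hybridised to 1 array per sample. The authors deposited log2 signals per transcript cluster, made with Affymetrix Expression Console and Transcriptome Analysis Console per the submitters' processing notes. No tool version is listed, and how probes were summarised and on which build is not given in the sources used here. The medians differ between the 8 genotype arrays and the 4 drug arrays.

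From 72688 entries, 6732 controls were left out, leaving 65956 clusters, of which 30604 had 1 gene symbol, 2146 several and 33206 none. Of these, 22818 matched the RefSeq gene table by Entrez number. A gene with several rows (355 genes) was taken by its brightest row. Group means of all 12 arrays were fitted together with limma 3.58.1 in R 4.3.3 (residual df 6, prior df 3.06), with Benjamini-Hochberg adjustment over all clusters and a threshold of 0.05. The fit was also run on simulated arrays with independent normal noise and known changes in brighter clusters. That setting cannot speak to replicates that may be technical or to signals near background. With 2 arrays a group, an exact permutation test of a single value cannot go below p = 0.333. "At least" folds set the dimmer group at its background limit. The number of arrays limits the precision.

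Genes named are the 6 members, the 2 largest rises and falls called in each list, the 3 genes with the highest r to each member, 5 neighbours on each side, and Fcer1g, Syk, Tyrobp and Card9 for their role. The members and lists were chosen with earlier results of these data known. Alternatives were other normalizations, filters, moderation, a replicate block, the arrays of a comparison alone, and leaving out each array.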

Additional observations from a re-analysis of the deposited data

Results flagged for a closer look

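The genotype effect differed between stages, by the test of the difference itself, for Clec4d (3.76, adjusted p = 0.00789), Clec5a (4.41, adjusted p = 0.0114) and Clec7a (3.71, adjusted p = 0.000367; limma, neutrophils minus progenitors, log2). Both Ezh2-/- progenitor arrays lay below both wild-type progenitor arrays for all 3 genes. For Clec7a the Ezh2-/- arrays were below background, so its progenitor deficit is bounded at 1.22-fold or, by the negative controls, has no bound. Both arrays of neutrophils labelled Ezh2-null lay above both wild-type neutrophil arrays for Clec4d and Clec7a, and below them for Clec5a. Of these neutrophil differences only that of Clec7a was called, while Clec4d gave 0.63 (limma adjusted p = 0.457) and Clec5a -1.51 (limma adjusted p = 0.112). The share of all clusters that separate in this way was not computed. Clec7a also differed between the neutrophil genotype effect and the GSK343 effect (1.47, limma adjusted p = 0.0445). The Clec7a arrays were 13.30 and 14.12 against 12 and 11.97 for the genotype label, and 11.44 and 11.32 against 11.15 and 11.09 for the drug.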

How the results depend on the processing

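Of the member results, those called with limma that kept their direction and call under all 19 alternatives were Clec5a and Clec7a in progenitors, Clec7a in neutrophils, the rises of Clec4d, Clec4n, Clec7a and Clec12a in both differentiations and of Clec5a in cells labelled Ezh2-null, and the stage differences of Clec4d and Clec7a. Only uncalled values changed sign. Leaving out each array moved Clec4n over -0.26 to 0.02 in progenitors (0.01 without the second wild-type array, 0.02 without the second Ezh2-/- array). It moved over -0.62 to 0.92 in neutrophils and -0.50 to 1.04 between stages (-0.62 and -0.50 without the first wild-type neutrophil array, -0.13 and -0.01 without the second labelled Ezh2-null). For the genotype effect minus the drug effect it ran from -1.26 to 0.28, the latter without the second wild-type neutrophil array. Clec4d ran from -0.03 (without the first GSK343 array) to 0.37 for GSK343, and from -0.04 (without the first neutrophil array labelled Ezh2-null) to 0.97 for the genotype effect minus the drug effect. The cause was not tested. Fitting only the arrays of a comparison, which leaves fewer residual degrees of freedom, gave 351 clusters in place of 1969 and 2 members in place of 4 in progenitors, 7591 clusters in place of 14799 for differentiation labelled Ezh2-null, 1352 in place of 2911 between stages, and 0 members in place of 1 for the genotype effect minus the drug effect, as trend and robust moderation also did (0 members). Testing only clusters with 1 symbol, fewer in number, gave 10226 in place of 16664 for wild-type differentiation and 9042 for that labelled Ezh2-null. For GSK343, 1 cluster became 3 after quantile normalization, 8 after median centring (7 up, 1 down), 9 with 1 symbol, 2 with the replicate block, 3 with trend and robust moderation and 2 above background. Leaving out each array in turn gave 962 to 2776 clusters in progenitors, 4023 to 9580 in neutrophils with 1 to 3 members, 0 to 2 for GSK343, 1511 to 3758 between stages, and 947 to 2996 with 0 to 2 members for the genotype effect minus the drug effect. The replicate numbers are not stated to pair samples. Correlations of their deviations ran from -0.25 to 0.19 over the pairs of groups, and the replicate block changed no member's call. For other named genes, 334 of 3148 alternatives lost a call and none reversed one. The alternative of another row per gene was not run, since each member has 1 row, and Clec4n in progenitors gave no value under the background filter. Signals near background bound Clec4n and Clec7a in progenitors.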
